A study of Mus musculus with 5 samples.

Results

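The genes described here are the collagens, the laminins and the enzymes that crosslink collagen, measured by mRNA sequencing of primary mouse astrocyte cultures. They were taken by symbol from the authors' deposited table: every Col gene with a chain number, every Lama, Lamb and Lamc gene, Lox, Loxl1 to Loxl4 and Plod1 to Plod3. The table held 58 of them among its 18783 genes. The choice went by symbol alone, but was made with earlier results of these data known. The mouse annotation (GENCODE for GRCm38) holds 63 symbols of this form; Col6a5, Col6a6, Col10a1, Col13a1 and Lamb3 had no row in the table. The 58 comprise 11 fibrillar collagens, 6 collagen IV chains, 3 other collagens of the basement membrane zone, 4 collagen VI chains, 9 fibril-associated (FACIT) collagens, 2 network-forming collagens, 5 transmembrane or other collagens, 10 laminin chains, 5 lysyl oxidases and 3 lysyl hydroxylases.

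All cultures came from C57BL/6 pups of postnatal day 0 to 1 and were harvested on day 12 in vitro. In the Aβ+DFMO group (1 library), cells received 1 µM amyloid-β together with 50 µM DFMO (difluoromethylornithine, an inhibitor of ornithine decarboxylase) for 5 days. The Aβ group (2 libraries) received 1 µM amyloid-β alone for the same 5 days, and the Control group (2 libraries) was naive. The medium of every group held horse and fetal bovine serum, and no group had DFMO without Aβ. Nothing in the labels says that libraries of a group were separate cultures. The p-values therefore measure only the spread between libraries of the groups with 2, which may be technical. Aβ+DFMO, with 1 library, has no spread of its own, and its tests assume that it varies like the other groups. An effect of DFMO cannot be told apart from other traits of that library, such as its lower depth.

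Collagens are trimers of α-chains in which glycine leads every triplet of residues, a spacing that lets the chains wind into a triple helix. Fibrillar collagens assemble into cables that bear tension, whereas collagen IV forms a sheet that, with laminin trimers and nidogen, builds basement membranes; in the brain these surround blood vessels and line the surface under the astrocyte endfeet. Lysyl hydroxylases (Plod genes) modify lysines while the chain is in the endoplasmic reticulum, and lysyl oxidases (Lox genes) oxidise lysines outside the cell to start the covalent crosslinks between molecules.

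The glycine repeat is visible in the genes themselves, and glycine and proline codons are rich in G and C. Whether the repeat bears on the measured values was not tested. Each of the 11 fibrillar genes has 21 to 33 coding exons of exactly 54 bases, the length of 6 triplets. Whether these read in frame as 6 GGN-led triplets was checked for 4 genes. It held for 21 in Col1a1, 23 of 24 in Col1a2, 24 in Col3a1 and 24 in Col5a2. One such exon is shown for each of these 4 fibrillar chains, whose levels are described below. It is the exon of median GC content among those of the gene that read in frame as 6 GGN-led triplets. Capitals mark the GGN glycine codons, the coding strand is printed 5′ to 3′, and positions are on GRCm38.
Col1a1, chr11:94943590-94943643, plus strand: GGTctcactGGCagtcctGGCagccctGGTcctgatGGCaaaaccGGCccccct
Col1a2, chr6:4515961-4516014, plus strand: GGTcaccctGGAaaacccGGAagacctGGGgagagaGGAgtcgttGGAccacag
Col3a1, chr1:45325805-45325858, plus strand: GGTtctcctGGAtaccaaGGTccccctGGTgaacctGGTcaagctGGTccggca
Col5a2, chr1:45400821-45400874, minus strand: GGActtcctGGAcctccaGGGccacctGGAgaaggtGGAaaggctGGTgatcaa
The GC content of the exon shown was 66.7% for Col1a1, 61.1% for Col1a2, 61.1% for Col3a1 and 59.3% for Col5a2. GGN codons made up 9.07% to 31.18% of the codons of the 40 collagens (median 24.19%), against 5.84% to 10.21% in the other 18 genes. The longest unbroken run of GGN-led triplets held 216 to 344 of them in the fibrillar genes. The median GC content of the longest coding transcript was 54.8% in the 58 genes and 49.5% in all genes with a value, and their transcripts ran between 43.0% and 62.9%.

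Depth was unequal. The Aβ+DFMO library had 4825677 reads and the Control libraries 49676004 and 49020833, which is 10.3 and 10.2 times as many; the reads of each Aβ library were not used here. Every value of a gene is a group mean as the authors normalized it, called normalized signal here. Most low Aβ+DFMO values (80.3% of the 7272 genes below 27 steps) were whole multiples of a step of 7.45, taken as the worth of 1 read. The step did not depend on the gene, so the values are not divided by gene length. By that step the 58 genes had a median of 73.0 estimated reads in the Aβ+DFMO library, 12 had under 10, and 8 had 1 to 3. Levels of different genes are therefore compared only after division by the length of the longest coding transcript, as signal per kb. The sums of marker lists given below are not so divided and are compared between groups only.

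Per kb, the highest Control values belonged to Col5a2 (2240), Col8a1 (1736), Plod2 (1420), Col4a1 (1369), Col1a1 (1347) and Lamb2 (1199), computed from the authors' deposited table. In Aβ+DFMO the order began with Col5a2 (3322), Col8a1 (2530), Plod2 (2128), Col4a1 (1579), Lox (1478) and Col1a1 (1330). At the other end, 3 genes had a Control mean under 10, and 5 genes rested on 1 estimated read each in Aβ+DFMO, among them Col17a1 of epithelial hemidesmosomes and Col25a1 of neurons.

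**Figure D1:**
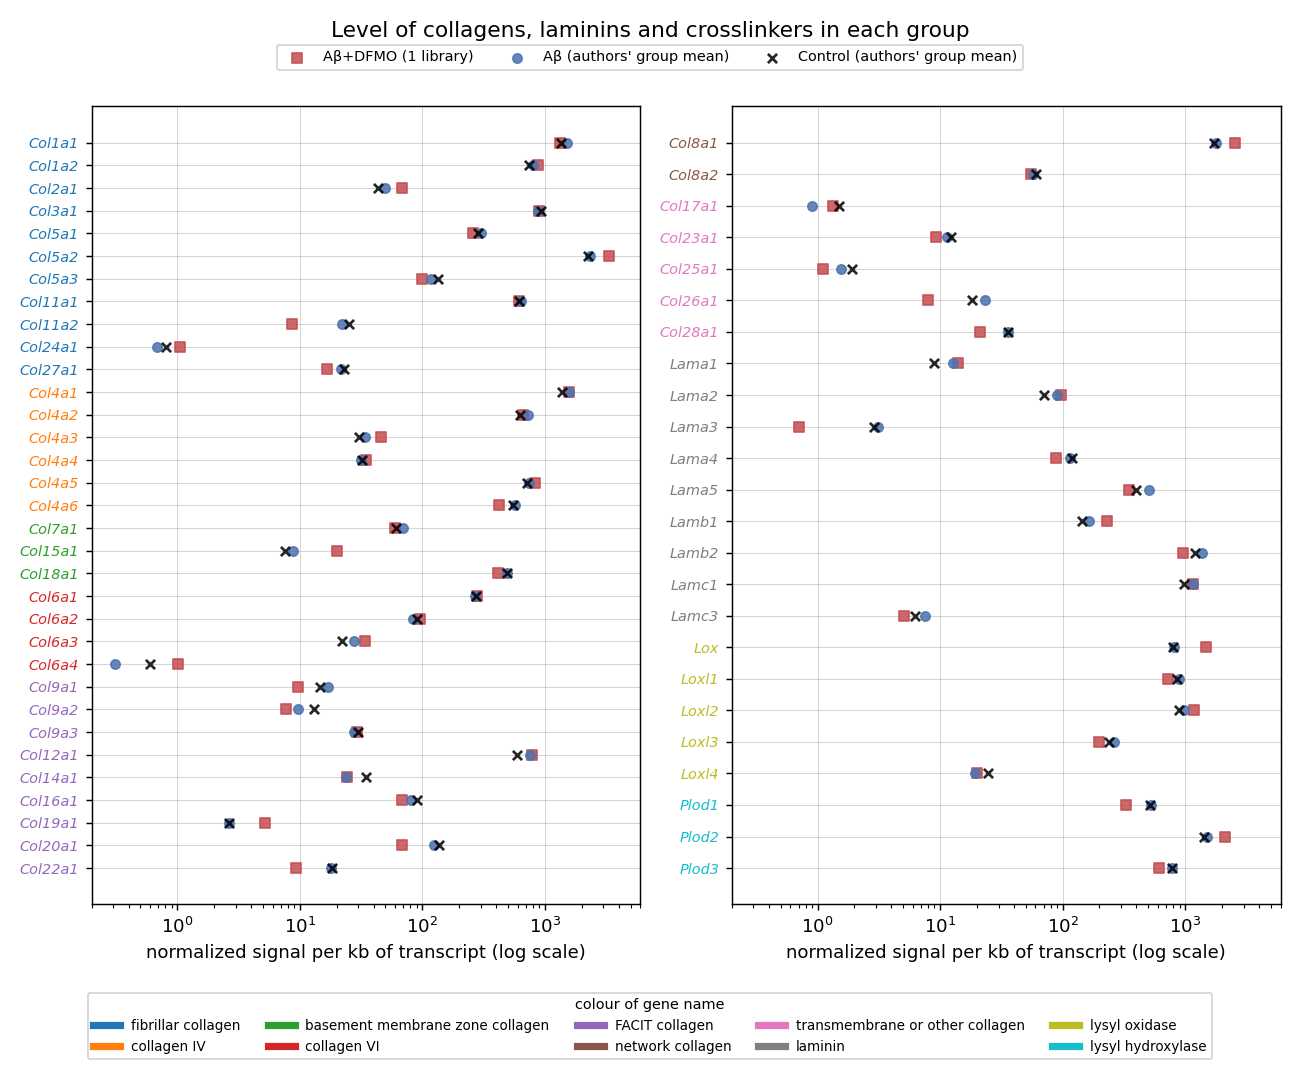
Level of the collagens, laminins and crosslinkers reported here in Aβ+DFMO (squares, 1 library), Aβ (circles) and Control (crosses, both the authors' group means), as normalized signal per kb of transcript on a log axis. Lox, Plod2, Col5a2 and Col8a1 show a square to the right of both other marks, while Plod1, Col4a6 and Col20a1 show it to the left.

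No gene of the 58 passed an adjusted p of 0.05 in Aβ against Control, and 7 did in Aβ+DFMO against Aβ. Both counts rest on the authors' deposited table of DESeq2 tests, with p-values adjusted over all 18783 genes. In Aβ against Control, 0.287% of all genes were called (0.112% higher and 0.176% lower), and the smallest adjusted p among the 58 was 0.987. At an unadjusted p under 0.05, 5 of the 58 passed where 1.72% of all genes did: Col4a2, Col4a1, Col1a1 and Lama2 lay higher, as did 0.453% of all genes, and Col14a1 lower, as did 1.27%. In Aβ+DFMO against Aβ, 9.18% of all genes were called, 4.0% higher and 5.18% lower. Among the 58, Lox, Col5a2, Col8a1 and Plod2 rose and Plod1, Col4a6 and Col20a1 fell in Aβ+DFMO, a share near that of all genes. The median log2 ratio of the 58 was -0.02 in Aβ+DFMO against Aβ, where that of all genes was 0.01, with 29 genes above 0 and 29 below; in Aβ against Control it was 0.04, where that of all genes was 0.00. These 2 comparisons share the Aβ libraries.

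**Figure D2:**
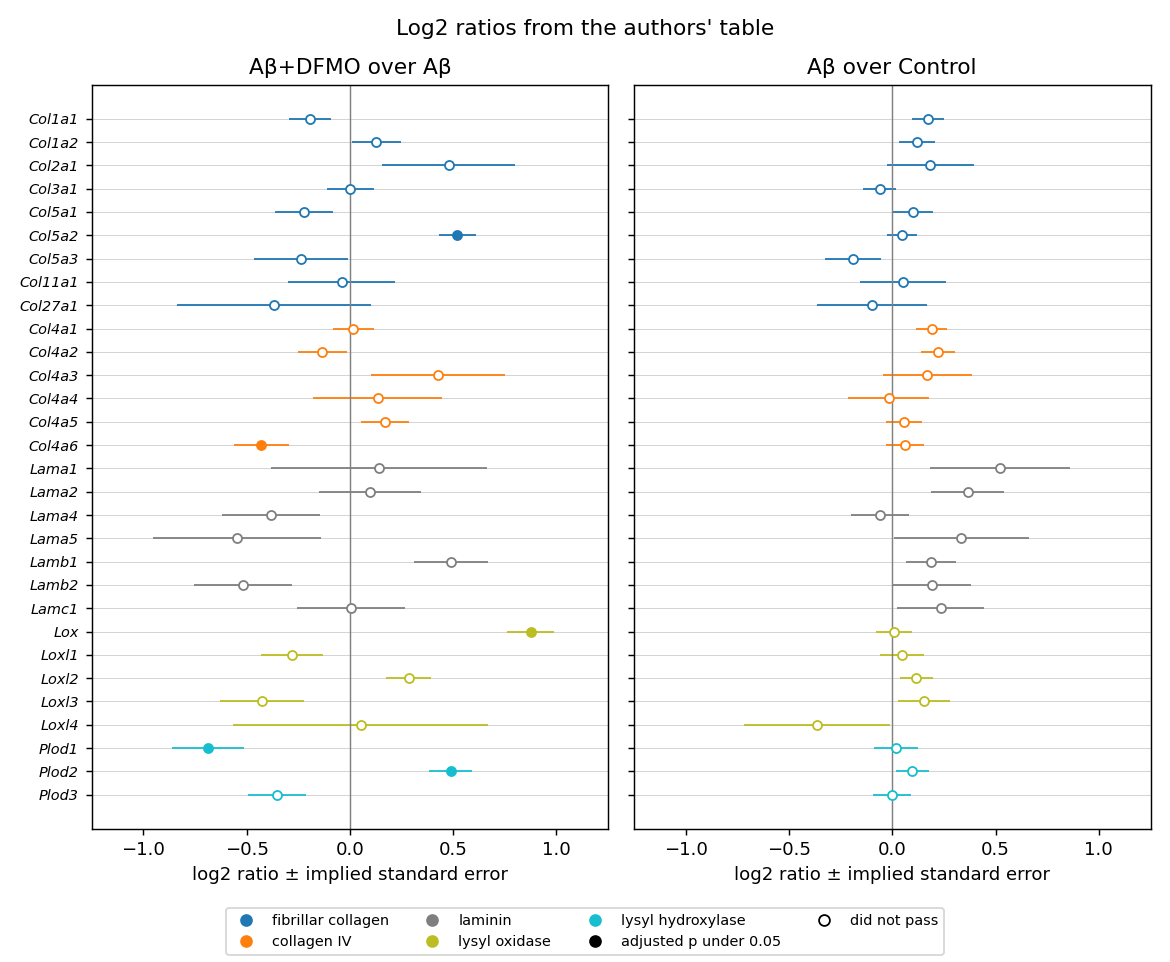
Log2 ratio of Aβ+DFMO over Aβ (left) and of Aβ over Control (right) for the reported fibrillar collagens, collagen IV chains, laminins and crosslinking enzymes with at least 10 estimated reads in Aβ+DFMO, with bars of 1 implied standard error (the size of the log2 ratio over the normal deviate of its p-value). Filled points mark an adjusted p under 0.05: Lox, Col5a2, Plod2, Plod1 and Col4a6 on the left, and none on the right.

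Among the crosslinking enzymes, 1 of 5 lysyl oxidases and 2 of 3 lysyl hydroxylases were called, where 9.18% of all genes were. Of these calls that of Lox alone held with the GC trend taken out, when Loxl2 passed as well. Lox, the founding lysyl oxidase (chr18:52516067-52529867, minus strand), had a normalized signal of 7005 in Aβ+DFMO, 3819 in Aβ and 3798 in Control in the authors' deposited table. It thus stood apart in Aβ+DFMO alone, where its 940 estimated reads give a 95% exact Poisson interval of 6564 to 7468, counting error only. Its log2 ratio of Aβ+DFMO to Aβ was 0.88 with an implied standard error of 0.11 (adjusted p 9.29e-12 in the authors' deposited table), and that of Aβ to Control was 0.01. Among its relatives, Loxl2, which also acts on collagen IV, had 6290 in Aβ+DFMO, 5164 in Aβ and 4764 in Control (log2 ratio 0.28, adjusted p 0.0827, authors' deposited table), and did not pass. Loxl1, known for elastic fibres, had 2400 in Aβ+DFMO, 2915 in Aβ and 2824 in Control, and Loxl3 had 809 in Aβ+DFMO, 1086 in Aβ and 976 in Control, with adjusted p-values of 0.281 and 0.201 in the authors' deposited table. Loxl4 was the least abundant lysyl oxidase per kb, with 10 estimated reads in Aβ+DFMO. Of the 5 lysyl oxidases 1 rose and 4 did not pass, with a median log2 ratio of 0.05. Of the summed signal per kb of the 5, Lox made up 41.0% in Aβ+DFMO, 27.3% in Aβ and 28.4% in Control.

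Of the 3 lysyl hydroxylases, Plod2 rose and Plod1 fell in Aβ+DFMO, and both calls ended when the GC trend described below was taken out. Plod2, which hydroxylates the telopeptide lysines that stabilise crosslinks (chr9:92542223-92608428, plus strand), had 7795 in Aβ+DFMO, 5560 in Aβ and 5200 in Control in the authors' deposited table. Its log2 ratio of Aβ+DFMO to Aβ was 0.49 ± 0.11 (implied standard error), with an adjusted p of 0.000283 in the authors' deposited table. Plod1, which acts on lysines of the helix (chr4:147909753-147936767, minus strand), had 1058 in Aβ+DFMO, 1702 in Aβ and 1681 in Control, a log2 ratio of -0.69 ± 0.17 (adjusted p 0.0028, authors' deposited table). Plod3, which also glycosylates hydroxylysine, had 2004 in Aβ+DFMO, 2560 in Aβ and 2559 in Control and did not pass (log2 ratio -0.35, adjusted p 0.0975, authors' deposited table). Plod2 was thus the highest of the 3 per kb in every group, and its ratio to Plod1 per kb was 6.52 in Aβ+DFMO, 2.89 in Aβ and 2.74 in Control. Loxl3 and Plod3 share 13.1% and 16.1% of their transcript with Htra2 and Znhit1 on the opposite strand, and no source used here says whether the counting kept to strand.

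Of the 11 fibrillar collagens, Col5a2 alone was called. Col5a2, a chain of collagen V, which sets the diameter of collagen I fibrils (chr1:45374321-45503282, minus strand), had 22007 in Aβ+DFMO, 15342 in Aβ and 14838 in Control in the authors' deposited table. Its log2 ratio of Aβ+DFMO to Aβ was 0.52 ± 0.09 (implied standard error), with an adjusted p of 1.77e-06 in the authors' deposited table. Its partner chain Col5a1 had 2184 in Aβ+DFMO, 2547 in Aβ and 2374 in Control, a log2 ratio of -0.22 that did not pass (adjusted p 0.401, authors' deposited table). The per-kb ratio of Col5a2 to Col5a1 was 12.8 in Aβ+DFMO, 7.64 in Aβ and 7.93 in Control, so that the α2 chain exceeded the α1 chain in every group. Collagen I is the main fibril protein of bone and skin, with Col1a1 coding for the more numerous of its chains. Col1a1 had 7885 in Aβ+DFMO, 9010 in Aβ and 7986 in Control, and Col1a2 had 4680 in Aβ+DFMO, 4283 in Aβ and 3942 in Control, both without a call (adjusted p 0.266 and 0.628 in Aβ+DFMO against Aβ, authors' deposited table). Col1a1 lay 0.17 higher on the log2 scale in Aβ than in Control (unadjusted p 0.022, authors' deposited table). Col3a1, which joins collagen I in soft tissues, had nearly equal values of 4941 in Aβ+DFMO, 4933 in Aβ and 5146 in Control in the authors' deposited table. Col11a1, a cartilage fibril chain, had 4740 in Aβ+DFMO, 4875 in Aβ and 4696 in Control, also per the authors' deposited table. The other fibrillar chains Col2a1, Col5a3, Col11a2, Col24a1 and Col27a1 were lower per kb in every group, between 1.04 and 99.9 in Aβ+DFMO, and none passed in the authors' deposited table. Of the summed fibrillar signal per kb, Col5a2 supplied 44.4% in Aβ+DFMO, 34.7% in Aβ and 35.2% in Control. The median log2 ratio of the 11 was -0.04 in Aβ+DFMO against Aβ and 0.05 in Aβ against Control.

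Collagen IV is encoded by 3 pairs of genes that start back to back, and all 6 chains were measured. Col4a1 and Col4a2, the chains of the common α1α1α2 network, start 21 bases apart on chromosome 8. Col4a1 (chr8:11198423-11312826, minus strand) had 10448 in Aβ+DFMO, 10336 in Aβ and 9055 in Control, and Col4a2 (chr8:11312805-11449287, plus strand) had 4278 in Aβ+DFMO, 4689 in Aβ and 4021 in Control in the authors' deposited table. Against Control, Aβ values were higher by log2 ratios of 0.19 ± 0.08 for Col4a1 and 0.22 ± 0.08 for Col4a2 (implied standard error; unadjusted p 0.0114 and 0.0082, adjusted p 0.987 for Col4a2, authors' deposited table). Neither therefore passed over all genes, and neither passed in Aβ+DFMO against Aβ, where the log2 ratios were 0.02 for Col4a1 and -0.13 for Col4a2. With the GC trend taken out these became 0.44 and 0.43, and both passed. Their per-kb ratio, Col4a1 to Col4a2, was 2.38 in Aβ+DFMO, 2.15 in Aβ and 2.20 in Control. Col4a5 and Col4a6 form a second network with their own pair of start sites on the X chromosome. Col4a6 (chrX:141165403-141474076, minus strand) fell to 2832 in Aβ+DFMO, against 3812 in Aβ, with 3647 in Control, a log2 ratio of -0.43 ± 0.13 (adjusted p 0.0201, authors' deposited table), a call that ended with the GC trend taken out. Its partner Col4a5 had 5448 in Aβ+DFMO, 4839 in Aβ and 4651 in Control and did not pass (log2 ratio 0.17, adjusted p 0.449, authors' deposited table). Col4a5 to Col4a6 stood at 1.96 per kb in Aβ+DFMO, 1.29 in Aβ and 1.30 in Control. Col4a3 and Col4a4, the chains of the glomerular network, were the lowest of the family per kb. Their normalized signals were 395 and 350 in Aβ+DFMO, 294 and 319 in Aβ, and 261 and 323 in Control, with no call in the authors' deposited table.

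Laminins are αβγ trimers that seed basement membranes, and none of the 10 chains passed in either comparison. Lamc1, the γ chain of most laminins, had 8868 in Aβ+DFMO, 8839 in Aβ and 7509 in Control in the authors' deposited table. Lamb2, the β chain of vascular and synaptic laminins, had 5388 in Aβ+DFMO, 7716 in Aβ and 6748 in Control, and Lama5, an α chain of mature endothelial basement membrane, had 3942 in Aβ+DFMO, 5753 in Aβ and 4560 in Control (adjusted p 0.167 and 0.502 in Aβ+DFMO against Aβ, authors' deposited table). Lamb2, Lamc1 and Lama5 were the most abundant β, γ and α chains per kb, and their tests were imprecise for genes of their level: the implied standard error of these 3 in Aβ against Control was 0.19, 0.21 and 0.33, which is 2.31, 2.61 and 3.81 times the median of genes of like level. Lamb1, the β chain of embryonic laminin and an alternative to Lamb2, had 1327 in Aβ+DFMO, 944 in Aβ and 829 in Control, a log2 ratio of 0.49 ± 0.18 (adjusted p 0.0599, authors' deposited table). The ratio of Lamb2 to Lamb1 per kb was 4.17 in Aβ+DFMO, 8.40 in Aβ and 8.36 in Control. Lama2, the α chain associated with astrocyte and muscle basement membranes, had 932 in Aβ+DFMO, 870 in Aβ and 676 in Control, and lay 0.37 ± 0.18 higher on the log2 scale in Aβ than in Control (unadjusted p 0.0383, authors' deposited table). Lama4, the other vascular α chain, had 537 in Aβ+DFMO, 698 in Aβ and 728 in Control in the authors' deposited table. Lama1, Lama3 and Lamc3 had 18 estimated reads or fewer in Aβ+DFMO. In Aβ against Control, 8 of the 10 chains lay above 0 with a median log2 ratio of 0.21, where the median of all genes was 0.00, and in Aβ+DFMO against Aβ the median was -0.19 with 5 above 0, and 0.01 with the GC trend taken out.

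Among the remaining collagens, Col8a1 rose and Col20a1 fell in Aβ+DFMO. Col8a1, a short-chain collagen of vessel walls and corneal endothelium (chr16:57624258-57754737, minus strand), had 12922 in Aβ+DFMO, 9113 in Aβ and 8867 in Control, a log2 ratio of 0.50 ± 0.11 (adjusted p 0.000242, authors' deposited table). Its partner chain Col8a2 had 238 in Aβ+DFMO (32 estimated reads), 247 in Aβ and 264 in Control in the authors' deposited table, so Col8a1 exceeded it per kb by a factor of 46.0 in Aβ+DFMO, 31.3 in Aβ and 28.4 in Control. The log2 shift of that ratio from Aβ to Aβ+DFMO was 0.55, and -0.05 with the GC trend taken out. Col20a1, a FACIT collagen (chr2:180986535-181018363, plus strand), had 343 in Aβ+DFMO, 628 in Aβ and 680 in Control, a log2 ratio of -0.87 ± 0.29 on 46 estimated reads (adjusted p 0.0327, authors' deposited table), which also lost its call with the GC trend taken out. The most abundant FACIT collagen per kb, Col12a1, had 8965 in Aβ+DFMO, 8751 in Aβ and 6850 in Control in the authors' deposited table, and carried an implied standard error of 0.31 in Aβ against Control, 3.78 times the median of genes of like level. Col14a1, a FACIT collagen of tendon and skin, was lower in Aβ than in Control at 154 against 225, with 156 in Aβ+DFMO (log2 ratio of Aβ to Control -0.54, unadjusted p 0.0386, authors' deposited table). Collagen VI, a microfibrillar collagen at cell surfaces, showed no call: Col6a3 had 343 in Aβ+DFMO, 282 in Aβ and 223 in Control in the authors' deposited table. Col18a1, Col15a1 and Col7a1, of the basement membrane zone, also showed none. The 5 transmembrane or other collagens had at most 12 estimated reads in Aβ+DFMO, and none passed.

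The change from Aβ to Aβ+DFMO followed GC content across the whole transcriptome, and the 58 genes shared in it. Over 11660 genes whose Aβ mean reached 200, the log2 ratio of Aβ+DFMO to Aβ had a Spearman correlation of -0.71 and a Pearson correlation of -0.68 with transcript GC content, a description across genes that share the same 3 libraries. For Aβ against Control these were 0.11 and 0.09 over 11678 genes. Among the 38 of the 58 genes at that level, the correlations for Aβ+DFMO against Aβ were -0.53 and -0.55. The 19 of lower GC content had a median log2 ratio of 0.13, with 15 above 0 and 4 calls higher and 1 lower, and the 19 of higher GC content had a median of -0.23, with 5 above 0, no call higher and 2 lower. Low GC content thus went with higher values, and Lox (43.9%), Plod2 (43.0%), Col8a1 (46.8%) and Col5a2 (49.6%), the genes that rose, all have transcripts of lower GC content than the median of the 58. Its part in each result was not tested.

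**Figure D3:**
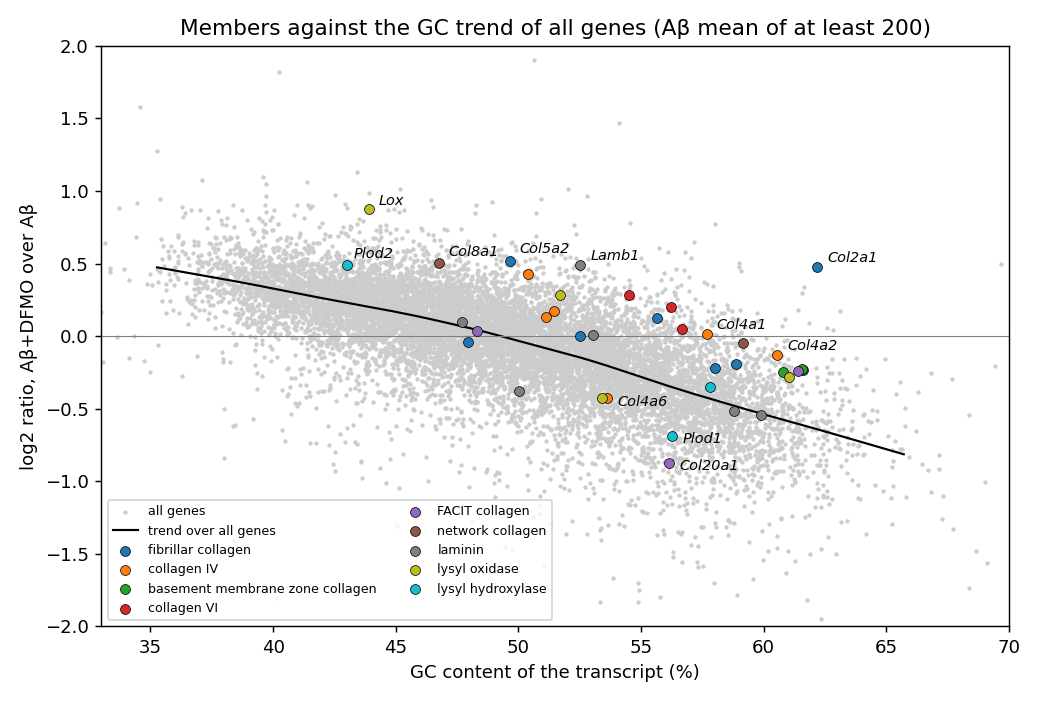
Log2 ratio of Aβ+DFMO to Aβ against transcript GC content (%) for the reported genes whose Aβ mean reached 200, drawn over all genes at that level with their trend line. The cloud slopes downwards, and Lox, Col5a2 and Col8a1 stand above the line.

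With the transcriptome-wide GC trend subtracted and the remainder tested with the implied standard errors, 9 of the 58 genes were higher in Aβ+DFMO than in Aβ and none was lower, where 0.829% and 0.731% of 18459 genes were, 1.56% in all. Before the subtraction, 4 of the 58 had been higher and 3 lower at an adjusted p under 0.05, against 4.0% and 5.18% of all genes. At the looser threshold of an unadjusted p under 0.05, 6 had been higher and 7 lower before it. Of all genes, 9.63% and 11.3% were, 20.9% together. Lox kept a log2 ratio of 0.67 (adjusted p 1.5e-06), Col5a2 0.54 (adjusted p 1.53e-06) and Col8a1 0.40 (adjusted p 0.02). The calls of Plod2 (0.26, adjusted p 0.313), Plod1 (-0.33, adjusted p 0.58), Col4a6 (-0.22, adjusted p 0.699) and Col20a1 (-0.53, adjusted p 0.624) ended. In their place Col4a1 (0.44, adjusted p 0.00153), Col4a2 (0.43, adjusted p 0.0202), Col1a2 (0.45, adjusted p 0.017), Loxl2 (0.39, adjusted p 0.0256), Lamb1 (0.64, adjusted p 0.0276) and Col2a1 (1.12, adjusted p 0.0376) passed. These are 3 fibrillar chains, both chains of the common collagen IV network, 1 laminin chain, 2 lysyl oxidases and Col8a1. The median of the 58 was then 0.28 with 40 above 0, against 0.02 for all genes. Using the GC content of the coding sequence in place of the whole transcript, a choice made after seeing the data, 7 were higher and none lower, where 2.32% and 1.18% of 14544 genes were, 3.5% in all: Lox, Col5a2, Col8a1, Loxl2, Col1a2, Col4a1 and Col4a5. Lox differs most between these measures, since its coding sequence has 59.4% GC and its whole transcript 43.9%.

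**Figure D4:**
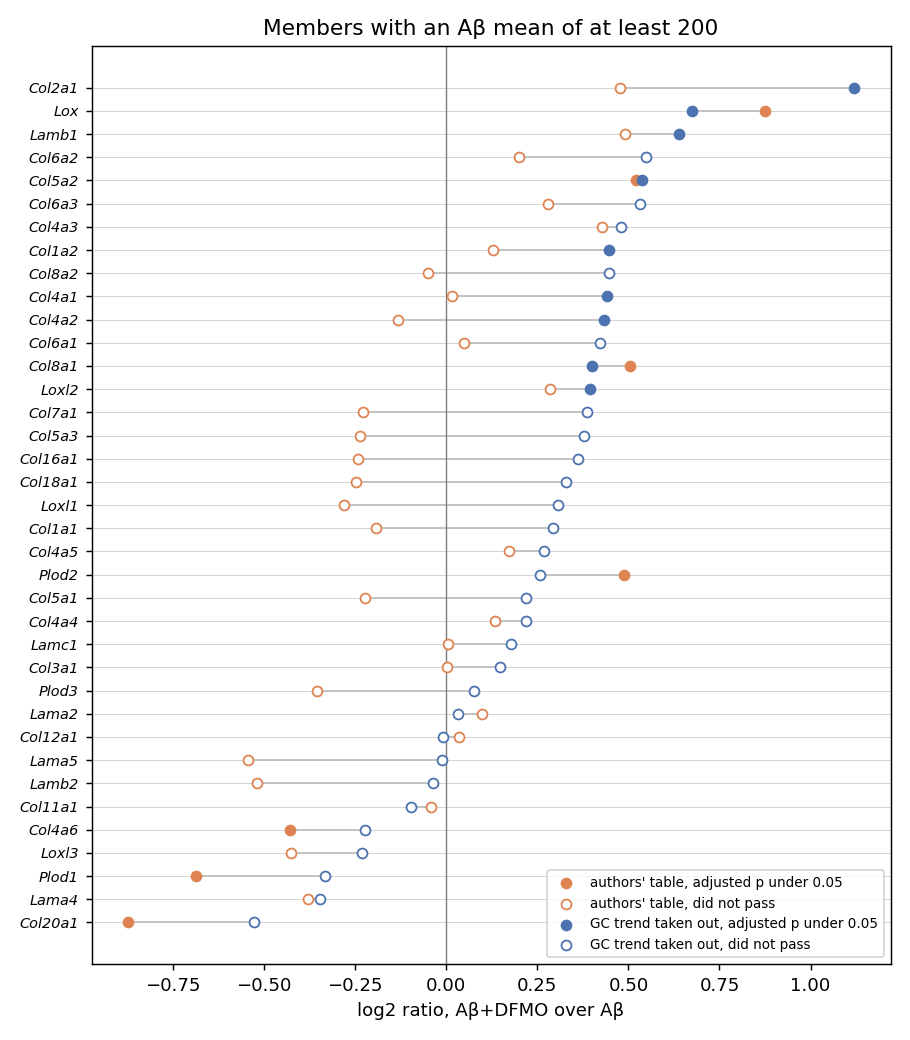
Log2 ratio of Aβ+DFMO to Aβ for the reported genes whose Aβ mean reached 200, as deposited (orange) and after the GC trend was taken out (blue). Filled points mark an adjusted p under 0.05. Most genes lie further right once the trend is taken out, while Lox (0.67), Col8a1 (0.40), Plod2 (0.26), Lama2 (0.03), Col12a1 (-0.0075) and Col11a1 (-0.10) lie further left.

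Against Control, Aβ+DFMO was described only by the ratio of the group means, since the authors' deposited table was used here for 2 tests that do not include it. Lox had a log2 ratio of 0.88, Plod2 0.58, Col5a2 0.57 and Col8a1 0.54, while Plod1 had -0.67, Col4a6 -0.37 and Col20a1 -0.99. For each of these 7 genes the Aβ and Control values lay close together and Aβ+DFMO apart from both. They are the genes called in Aβ+DFMO against Aβ, and 0.287% of all genes were called in Aβ against Control. That pattern therefore follows largely from how the genes were picked and is no separate result. Over the 58 the median was -0.04, with a range of -2.02 to 1.42, and over all genes it was 0.02.

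The enzymes and chaperones that prepare collagen in the endoplasmic reticulum or trim it outside the cell showed calls in either direction. Of 23 measured, 2 rose and 2 fell in Aβ+DFMO against Aβ, with a median log2 ratio of 0.01, and none passed in Aβ against Control. For this and the next lists, 4.0% of all genes rose and 5.18% fell in the same comparison. P4ha1, a catalytic subunit of prolyl 4-hydroxylase, had 10284 in Aβ+DFMO, 7199 in Aβ and 6964 in Control (log2 ratio 0.51, adjusted p 2.54e-05, authors' deposited table), while the related subunit P4ha3 had 2303 in Aβ+DFMO, 3355 in Aβ and 3431 in Control (-0.54, adjusted p 0.002, authors' deposited table). Fkbp14, a prolyl isomerase, had a log2 ratio of 0.44 and Bmp1, the procollagen C-proteinase, of -0.37 (adjusted p 0.0353 and 0.0301, authors' deposited table). Once the GC trend was subtracted, P4ha1 alone of these passed (0.37, adjusted p 0.0166).

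Of 13 other basement membrane components, 2 rose and 1 fell. Nid1, which links laminin to collagen IV, had 3749 in Aβ+DFMO, 2765 in Aβ and 2593 in Control (log2 ratio 0.44, adjusted p 0.0106, authors' deposited table), and Npnt, an integrin ligand, had 3123 in Aβ+DFMO, 2295 in Aβ and 2376 in Control (0.44, adjusted p 0.014, authors' deposited table). Agrn, a heparan sulphate proteoglycan of endfoot membranes, fell to 6029 in Aβ+DFMO, against 9699 in Aβ, with 8874 in Control (-0.69, adjusted p 9.15e-07, authors' deposited table). Nid1 (0.49, adjusted p 0.0118) and Npnt (0.49, adjusted p 0.0199) still passed once the GC trend was subtracted and Agrn did not (-0.28, adjusted p 0.35).

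Of 16 collagen and laminin receptors, Itgb1 rose, and Ddr1 and Dag1 fell. Itgb1, the β subunit of the collagen and laminin integrins, had 58500 in Aβ+DFMO, 40366 in Aβ and 39756 in Control (log2 ratio 0.54, adjusted p 2.73e-06, authors' deposited table). Ddr1, a receptor kinase for collagen, had a log2 ratio of -0.85 and Dag1, dystroglycan, of -0.31 (adjusted p 5.34e-14 and 0.0139, authors' deposited table). Once the transcript GC trend was subtracted, Itgb1 passed (0.36, adjusted p 0.0125), and Ddr1 (-0.32, adjusted p 0.0765) and Dag1 (-0.15, adjusted p 0.731) did not. With the coding GC trend subtracted, Itgb1 did not pass (0.22, adjusted p 0.234) and Ddr1 did (-0.42, adjusted p 0.00225). Among 8 small leucine-rich proteoglycans, which coat collagen fibrils, Ogn (0.65, adjusted p 1.7e-08) and Omd (0.68, adjusted p 0.000104) rose in the authors' deposited table, and neither passed once either GC trend was subtracted. Fmod, fibromodulin, passed with the coding GC trend subtracted (0.40, adjusted p 0.0308) and not with that of the transcript (0.37, adjusted p 0.106). No gene of these 4 lists passed in Aβ against Control.

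The astrocyte label was met by all 8 astrocyte markers, of which the lowest had 343 in Aβ+DFMO, 471 in Aβ and 457 in Control; their summed signal was 122822 in Aβ+DFMO, 153071 in Aβ and 153115 in Control in the authors' deposited table, and 2 of 8 fell in Aβ+DFMO. The median log2 ratio of Aβ+DFMO to Aβ of these 8 was -0.21. It was -0.305 with the GC trend taken out, when all 8 lay below 0, and -0.12 with the coding GC trend, when 6 did. Markers of other cells that make matrix were present beside these collagens. The sums are not divided by gene length, so the sum of 1 list cannot be set against that of another. The 6 measured mural markers summed to 131578 in Aβ+DFMO, 117728 in Aβ and 116051 in Control (2 rose and 1 fell in Aβ+DFMO, and none fell with the GC trend taken out), and the 7 measured fibroblast and meningeal markers to 21016 in Aβ+DFMO, 17159 in Aβ and 17618 in Control (Ogn rose), from the authors' deposited table. That sum follows Ogn, with 17342 in Aβ+DFMO, 11076 in Aβ and 11087 in Control in the authors' deposited table. Of these 7 markers, 5 had a log2 ratio of Aβ+DFMO to Aβ below 0, and the median was -0.20. With the GC trend taken out, 4 were below 0 and the median was -0.24. Ogn then had a log2 ratio of 0.20 and lost its call, while Foxc1 went from 0.43 to 0.77 and gained one. Most of the mural sum came from Acta2 (81013 in Aβ+DFMO, 66644 in Aβ, 65706 in Control) and Tagln (47688, 47769 and 47320). Of the 6 mural markers, 4 had a log2 ratio of Aβ+DFMO to Aβ below 0. Their median was -0.07, and 0.15 with the GC trend taken out. Endothelial markers stood at sums of 797 in Aβ+DFMO, 663 in Aβ and 664 in Control, and 2 of the 4 had 3 estimated reads or fewer. Oligodendrocyte lineage markers summed to 21366 in Aβ+DFMO, 39538 in Aβ and 39527 in Control. Of these, 6 of 7 were lower (5.18% of all genes), and 3 of 7 with the GC trend taken out (0.731%). Cspg4, the mural marker that fell, and Pdgfra of the fibroblast list are also among these 7. Microglial markers summed to 3477 in Aβ+DFMO, 4459 in Aβ and 8810 in Control. In Aβ against Control 3 of 6 were lower, where 0.176% of all genes were. No measured marker was at 0; 1 fibroblast, 2 mural and 2 endothelial markers had no row in the table. In RNA from a whole culture, fewer cells of a type and less RNA per cell cannot be told apart, and the part of these cells in the collagen values was not tested.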

How the data were processed

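Polyadenylated mRNA of 5 libraries was sequenced as read pairs, per the labels' protocols. The submitters' processing notes name STAR 2.7.3a, Partek, FastQC and DESeq2, and the mm10 and GRCm39 builds, with no role for each; no source used here names the annotation. Per the file headers, the authors deposited group least-squares means (a normalized signal), p-values with adjusted p-values, and the ratio and log2 ratio of Aβ to Control and of Aβ+DFMO to Aβ. A deposited table also gives the percent of reads in exons, 84.42% to 84.87% in the 3 libraries whose rows could be matched. Values of single libraries per gene were not used, so no count test was run; 14 further columns of per-sample values were not used. Of 7272 genes below 27 reads' worth in the Aβ+DFMO column, 80.3% were whole multiples of 7.45 within 0.05 of a read, and 56 of the 58 genes were.

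A gene was called at an adjusted p under 0.05. The implied standard error assumes a Wald test, and the lone Aβ+DFMO library was assumed to vary like the other groups. Over all genes 76.6% of the p-values of Aβ against Control were above 0.5, so a gene without a call is not shown to be unchanged. A lowess trend (span 0.3) of the log2 ratio on transcript GC content (GENCODE, GRCm38) was subtracted in 1 alternative, with Benjamini-Hochberg adjustment over the 18459 genes that have a value. The procedure was run on simulated data built from the fitted trend and the implied standard errors. Such data cannot show whether either of these is right for the libraries used. Other alternatives were thresholds of 0.1 and 0.01, a minimum mean of 200, a pseudocount of 10 and median centring. Python 3.11.15, pandas 2.3.3, scipy 1.17.1 and statsmodels 0.14.6 were used.

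Members, lists and tests were chosen with earlier results of these data known. All fibrillar, collagen IV, laminin, lysyl oxidase and lysyl hydroxylase genes could be named; 1 gene of the 58 enters the counts and medians but is not reported here. Of the other roles the called genes and the smallest p per comparison were named, and of each partner list up to 4 genes with the smallest p per comparison. Col8a2, Col12a1, Col15a1, Col18a1, Col7a1, Col17a1 and Col25a1, and the further genes listed for a changed sign, were named after their values were seen where this rule did not reach them.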

Additional observations from a re-analysis of the deposited data

How the results depend on the processing

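No paired analysis was possible because no values of single libraries per gene were used; leaving out each replicate and the replicate block were for the same reason not run. Calls in Aβ+DFMO against Aβ went from 4 higher and 3 lower to 9 and 0 with the GC trend taken out, to 7 and 0 with the coding GC trend, and to 1 lower at an adjusted p under 0.01. The median log2 ratio of the small leucine-rich proteoglycans in Aβ+DFMO against Aβ was 0.17 with the GC trend taken out. As deposited it was -0.044, and 0.10 as deposited with the minimum mean of 200. With the GC trend taken out, the other median log2 ratios in Aβ+DFMO against Aβ were 0.29 (fibrillar), 0.35 (collagen IV), 0.39 (basement membrane zone), 0.54 (collagen VI), 0.39 (lysyl oxidases), 0.077 (lysyl hydroxylases), 0.22 (processing enzymes and chaperones), 0.17 (basement membrane partners), 0.01 (laminins, -0.19 as deposited), 0.041 (FACIT, -0.24 as deposited) and 0.052 (receptors, -0.053 as deposited), and 0.32 for the 58 genes in Aβ+DFMO against Control. It also turned the sign of these uncalled or no longer called ratios: Col1a1 0.29, Col4a2 0.43 (the only one then called), Col5a1 0.22, Col5a3 0.38, Col27a1 0.14, Col7a1 0.39, Col18a1 0.33, Col16a1 0.36, Col9a2 0.33, Col8a2 0.45, Col12a1 -0.0075, Loxl1 0.31, Plod3 0.077, Bmp1 0.075 and Prelp 0.051; in Aβ against Control, Col19a1 -0.0051, Col28a1 -0.0048 and Plod3 -0.0041. Log2 shifts of the per-kb chain ratios from Aβ to Aβ+DFMO also became smaller with the GC trend taken out. They went from 0.74 to 0.32 for Col5a2 to Col5a1 and from 1.17 to 0.59 for Plod2 to Plod1. Col4a5 to Col4a6 went from 0.60 to 0.49, Col4a1 to Col4a2 from 0.15 to 0.01, and Lamb2 to Lamb1 from -1.01 to -0.68. Centring turned Plod3 (-0.0015, Aβ against Control), Col3a1 (-0.0056) and Lamc1 (-0.0031). The minimum mean of 200, which leaves fewer genes to adjust over, brought Lamb1 to an adjusted p of 0.0385. For the other changes the cause was not tested. At adjusted p thresholds of 0.1 and 0.01, 10 and 5 of the 58 genes passed in Aβ+DFMO against Aβ, and 0 in Aβ against Control. The pseudocount, run for the medians, and centring changed no other call or direction. Depth limits the 12 genes with under 10 estimated reads in Aβ+DFMO.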

Other observations

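The precision of the tests differed sharply between matrix genes of like level. For 16 of the 21 collagens, laminins and crosslinkers with a Control mean of at least 2000, the implied standard error in Aβ against Control was 0.94 to 1.13 times the median of genes within 1.5-fold of their level. For Lamb2 it was 2.31 times, for Col11a1 2.42 times, for Lamc1 2.61 times, for Col12a1 3.78 times and for Lama5 3.81 times that median. Outside the 58 genes, chosen after their values were seen, Fn1 (fibronectin) stood at 3.94 times and Hspg2 (perlecan) at 4.02 times, while Nid1 stood at 0.95 times. Large errors were not confined to matrix genes. The markers Pdgfra and Cx3cr1 had implied standard errors of 0.38 and 0.37 at Control means of 4618 and 4455. Lama5 had 0.33 at 4560. Lamb2, Lamc1, Lama5, Col12a1, Fn1 and Hspg2 also had log2 ratios of Aβ to Control between 0.19 and 0.65, and Col11a1 had 0.05, all without a call. The cause was not tested.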
